A study of Mus musculus with 24 samples.

Results

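Glycolysis and hypoxia response genes were followed in mouse alveolar macrophages, the phagocytes of the airspaces, at 5 postnatal ages with and without lipopolysaccharide (LPS), a bacterial wall component sensed through TLR4. The set held 37 listed genes. It covered glucose and lactate transporters, the enzymes of glycolysis with their regulators, lactate dehydrogenases, pyruvate dehydrogenase kinases, the hypoxia-inducible factor Hif1a with its prolyl hydroxylases, and known Hif1a targets. All 37 were found in the count table of 56691 genes, and 33 of them were among the 11774 genes that reached 1 FPKM (counts per kilobase of exon, scaled to library size) in 2 or more libraries and were tested. Slc2a3, the neuronal-type glucose transporter, the prolyl hydroxylase Egln3, the angiogenic factor Vegfa and the Hif1a target Ankrd37 stayed below that level and were not tested. Their TMM-scaled FPKM was at most 0.24 for Slc2a3, 0.792 for Egln3, 0.568 for Vegfa and 0.578 for Ankrd37.

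The cells were lavaged from mice 1, 3, 7, 21 or 49 days after birth (D1 to D49) and pooled from several mice. They then spent 4 h in culture, either untreated or with LPS at 400 ng/mL. The 10 groups were D1 control with 2 libraries, D1 LPS with 3, D3 control with 3, D3 LPS with 2, D7 control with 2, D7 LPS with 2, D21 control with 3, D21 LPS with 2, D49 control with 3 and D49 LPS with 2. Controls therefore shared the lavage, the pooling and the 4 h of culture with the treated cells, and the strain of the mice is not given in the labels. The labels do not say that replicates came from separate animals, so p-values measure the spread between these libraries, which may be technical, and in pools of cells fewer cells of a type and less RNA per cell cannot be told apart.

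Glycolysis splits glucose into pyruvate, and lactate dehydrogenase then regenerates the NAD+ that the pathway uses. Pyruvate dehydrogenase kinases hold pyruvate back from the mitochondria by inactivating pyruvate dehydrogenase. Hif1a is a transcription factor that is degraded in oxygen after prolyl hydroxylation, and in many macrophages LPS stabilises it and raises glucose use. Alveolar macrophages are known for living in an oxygen-rich, glucose-poor space and for relying on lipid uptake.

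Library totals ran from 15.8 to 23.3 M counts. Libraries differed in how strongly GC-rich genes were represented. The GC deviation of a library is how far the 10% of tested genes richest in G and C sat above the mean library, as a median on the log2 scale, less the same for the 10% poorest. It lay beyond 1 in either direction in 10 of 24 libraries. Beyond 1, it was high at D1 and D3 (up to 2.84 in D1 LPS replicate 2). It was low in D21 control and at D49 (down to -3.17 in D49 control replicate 3), but 0.04 and -0.20 in the D21 LPS libraries. It lay between -0.21 and 0.36 in all 10 replicate 1 libraries. Members differed from genes at large in this respect, so values with GC deviation as a covariate are given beside the results. Across 24 libraries the members' median slope was 0.35 log2 units of expression per unit of GC deviation, against 0.01 over all tested genes. Aldoa had a slope of 1.39 ± 0.10 (SE), Gapdh 1.27 ± 0.13 and Pkm 1.10 ± 0.05, whereas Hif1a had -0.30 ± 0.05 and Ndrg1 0.10 ± 0.08. The 14 alveolar macrophage markers were all tested, and their summed level ran from 2393 to 4486 FPKM at D1 to D7 and from 12740 to 26155 FPKM at D21 and D49. Chil3 alone ran from 114 to 21770 FPKM over the libraries, whereas Marco, Fabp5, Car4 and Cd68 were each highest in a D1 or D3 library.

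**Figure D1:**
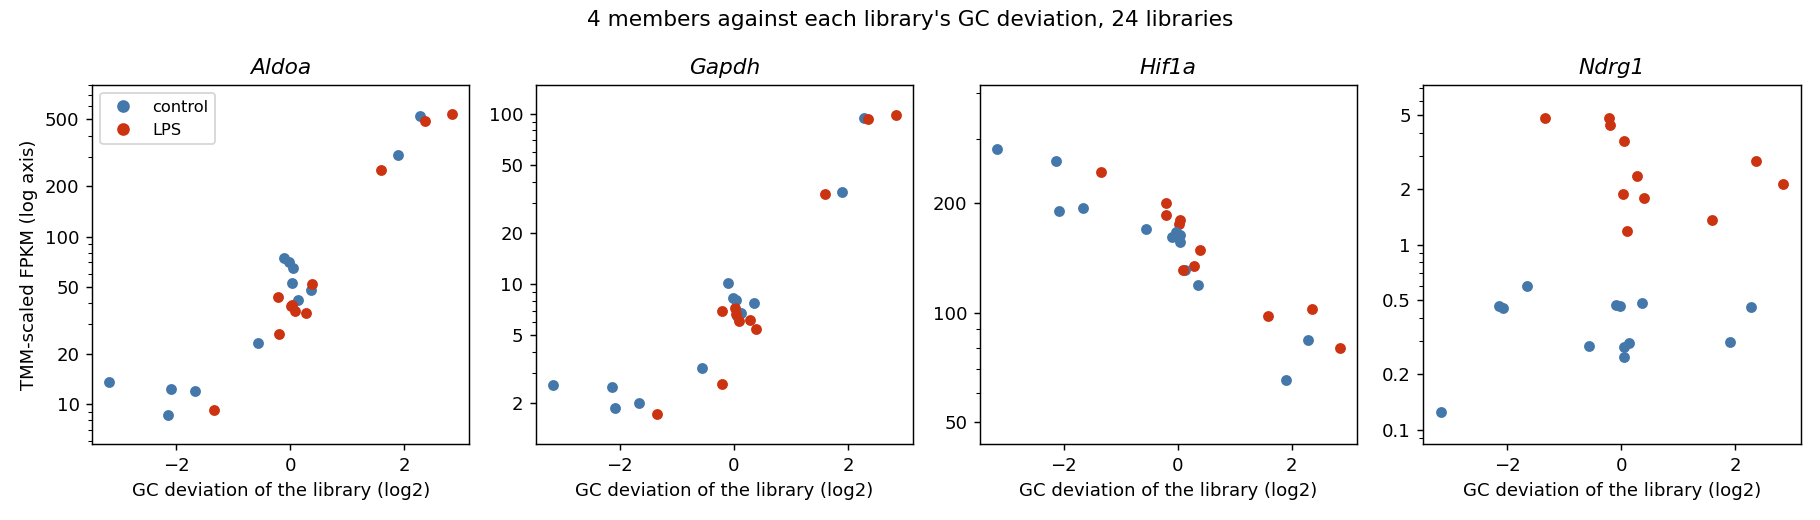
TMM-scaled FPKM (log axis) of Aldoa, Gapdh, Hif1a and Ndrg1 against the GC deviation of each of the 24 libraries, with control libraries in blue and LPS libraries in red. Aldoa and Gapdh climb with GC deviation in both treatments, Hif1a descends, and Ndrg1 separates by treatment at every GC deviation.

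Levels per exon length were compared in the 5 replicate 1 control libraries, whose GC deviation was close to 0. That means close to the mean library. The order of genes and isoforms can therefore still depend on their GC content and on the exonic lengths used. Hif1a had the highest median there, 161 FPKM, with a range of 119 to 166 that met that of Pgk1. It was followed by Ldha, the muscle-type lactate dehydrogenase subunit, with a median of 79.9 FPKM (49.6 to 109), by Pgk1, the first ATP-making enzyme of the pathway, with 68.3 (48.5 to 131), and by Pgam1, the mutase of lower glycolysis, with 62.5 (59.7 to 89.2). The pyruvate kinase Pkm followed with 57 (46.4 to 72.5) and the aldolase Aldoa with 52.6 (41.7 to 74). The ranges of these 5 enzymes overlapped, so their order is not resolved beyond the spread over ages. Among isoforms that do the same step, Hk2 with a median of 19.5 FPKM exceeded Hk3 with 2.98 and Hk1 with 0.434. Pfkp with 6.28 exceeded Pfkl with 1.11 and Pfkm with 0.28, and Eno1 with 12.8 exceeded Eno2 with 0.416. In each of these 3 sets the range of the leading isoform did not meet that of the others. Gapdh, often used as a reference gene, read only 8.1 FPKM (6.73 to 10.1).

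LPS raised Ndrg1 and Eno2 at all 5 ages, lowered the pyruvate dehydrogenase kinases Pdk1 and Pdk4 at 4 ages each and the Myc antagonist Mxi1 at 3, and left most glycolytic enzymes without a call at single ages. At D1, 3 of 33 tested members passed (2 higher, 1 lower), and 5.67% of all tested genes did (3.74% higher, 1.93% lower). At D3 it was 5 members (2 higher, 3 lower) and 7.01% of genes (4.43% higher, 2.57% lower). At D7 it was 6 members (2 higher, 4 lower) and 9.61% of genes (5.15% higher, 4.47% lower). At D21 it was 8 members (5 higher, 3 lower) and 13.5% of genes (6.77% higher, 6.74% lower). At D49 it was 4 members (3 higher, 1 lower) and 10.2% of genes (5.24% higher, 4.98% lower). As shares of the tested members these counts were 9.09%, 15.2%, 18.2%, 24.2% and 12.1%, so at D49 the share was close to that of genes at large. Leaving out 1 library gave 1 member at D1 without either control library or LPS replicate 3, 3 and 2 at D3 without LPS replicate 1 and 2, 2 at D7 without LPS replicate 2, and 5 at D21 without either LPS library. The members' median log2 fold change lay between -0.24 and 0.15 over the 5 ages, and that of all tested genes between -0.06 and 0.02. With GC deviation as a covariate the counts were 4, 8, 12, 14 and 15 in the order of age, against 12.2%, 14.8%, 17.7%, 21.3% and 19.4% of all tested genes. The split moved towards lower calls with that covariate, to 5 higher and 9 lower at D21 and to 4 higher and 11 lower at D49.

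Ndrg1, a stress-responsive gene induced by hypoxia and by differentiation, rose with LPS at all 5 ages. In control cells Ndrg1 read 0.483 and 0.457 FPKM (D1), 0.295, 0.299 and 0.247 (D3), 0.281 and 0.283 (D7), 0.468, 0.463 and 0.597 (D21) and 0.473, 0.453 and 0.125 (D49). With LPS Ndrg1 read 2.34, 2.12 and 2.83 FPKM (D1), 1.18 and 1.36 (D3), 1.88 and 1.78 (D7), 3.62 and 4.43 (D21) and 4.81 and 4.86 (D49). The lowest LPS library, in D3, stood above the highest control library, in D21. The log2 fold change was 2.37 ± 0.39 (SE) at D1 (adjusted p = 7.2e-04), 2.18 ± 0.36 at D3 (4.6e-04), 2.70 ± 0.42 at D7 (2.2e-04), 2.98 ± 0.36 at D21 (1.3e-05) and 3.77 ± 0.37 at D49 (1.8e-06). The call held without each library in turn, and with the GC covariate the 5 values were 2.32, 2.17, 2.65, 2.86 and 3.69.

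Eno2, the enolase isoform best known from neurons, also rose at all 5 ages, from a level below that of the widely expressed Eno1. In control cells Eno2 read 0.299 and 0.476 FPKM (D1), 0.269, 0.273 and 0.266 (D3), 0.416 and 0.483 (D7), 1.25, 1.91 and 0.771 (D21) and 0.807, 0.318 and 0.0959 (D49). With LPS Eno2 read 0.939, 2.15 and 2.21 FPKM (D1), 2.07 and 2.51 (D3), 4.61 and 4.65 (D7), 7.08 and 6.79 (D21) and 4.39 and 3.6 (D49). LPS and control libraries did not overlap at any age, and the D21 controls had the highest mean among controls. The log2 fold change was 2.18 ± 0.58 at D1 (adjusted p = 0.032), 3.08 ± 0.55 at D3 (0.0011), 3.36 ± 0.64 at D7 (0.0016), 2.40 ± 0.53 at D21 (0.0041) and 3.27 ± 0.55 at D49 (5.0e-04). At D1 the call was lost when either control library, LPS replicate 2 or LPS replicate 3 was left out (log2 fold change 1.89 to 2.56, adjusted p up to 0.36), while with the GC covariate it was 1.97 ± 0.40 (8.0e-04). Eno1 did not follow it: Eno1 passed at no single age without the covariate, and with it Eno1 was lower at D21 and D49. Eno2 remained the less abundant isoform except in both D21 LPS libraries, where it read 7.08 and 6.79 FPKM against 6.14 and 4.48 FPKM for Eno1.

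Of the hexokinases and phosphofructokinases, Hk1, Hk2 and Pfkp rose with LPS at D21 and Pfkp also at D49. At D21 the log2 fold change was 1.54 ± 0.85 for Hk3 (adjusted p = 0.26), -0.77 ± 0.71 for Pfkm (0.53) and -0.54 ± 1.10 for Pfkl (0.8). With the GC covariate Pfkl was lower at D3, D7, D21 and D49, with -1.25, -1.61, -1.60 and -2.09 (adjusted p 0.0049 to 0.037). With that covariate Hk3 passed at D7 alone, with 1.37 ± 0.33 (0.0031). Hk2, the inducible hexokinase that traps glucose in the cell, read 27 and 34.1 FPKM (D1), 23, 38.1 and 15.9 (D3), 19.5 and 14.9 (D7), 14.6, 12.2 and 12.9 (D21) and 18.4, 17 and 12.2 (D49) in control cells. With LPS Hk2 read 38.6, 55.4 and 52.4 FPKM (D1), 31.1 and 39.4 (D3), 26.3 and 24.7 (D7), 30.5 and 28.3 (D21) and 32.9 and 23.3 (D49). The groups did not overlap at D1, D7, D21 or D49 and overlapped at D3, where control replicate 2 was high. Hk2 passed at D21 with a log2 fold change of 1.15 ± 0.29 (adjusted p = 0.012; 0.86 ± 0.21 and 0.003 with the GC covariate), a call lost without either D21 LPS library (1.06 and 1.16, adjusted p = 0.087 and 0.063). At the other ages its log2 fold change was 0.67 at D1, 0.46 at D3, 0.57 at D7 and 0.82 at D49, with adjusted p from 0.087 to 0.56. Hk1, the hexokinase of most resting tissues, rose at D21 by 2.24 ± 0.56 (adjusted p = 0.011; lost without LPS replicate 1 or control replicate 2, adjusted p = 0.08 and 0.053). Hk1 passed at D7, D21 and D49 with the GC covariate, with 1.07, 1.73 and 0.95. Pfkp, the platelet-type phosphofructokinase and the most abundant isoform here, rose by 1.55 ± 0.35 at D21 (0.0052) and 1.34 ± 0.35 at D49 (0.017), the latter lost without LPS replicate 1 (1.22, adjusted p = 0.1) or control replicate 2 (1.32, 0.05). With the GC covariate Pfkp passed from D3 on, with 0.62, 1.04, 1.16 and 1.07 at D3, D7, D21 and D49.

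Pfkfb3, whose product fructose 2,6-bisphosphate activates phosphofructokinase, read 6.39 and 6.17 FPKM (D1), 4.85, 5.12 and 4.37 (D3), 5.29 and 5.63 (D7), 5.8, 7.06 and 6.83 (D21) and 7.16, 8 and 3.8 (D49) in control cells. With LPS Pfkfb3 read 11.9, 9.03 and 13.2 FPKM (D1), 6.19 and 5.61 (D3), 5.72 and 5.48 (D7), 7.99 and 7.34 (D21) and 7.34 and 6.28 (D49). The D1 groups did not overlap, and at D7 and D49 they did. Its log2 fold change was 0.86 ± 0.26 at D1 (adjusted p = 0.059; 0.85 ± 0.24 and 0.017 with the GC covariate) and 0.30, 0.04, 0.22 and 0.11 at the later ages, with adjusted p from 0.62 to 0.99.

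Pdk4 and Pdk1, which shut pyruvate dehydrogenase down, fell with LPS. Pdk4, the isoform tied to fatty acid use and fasting, read 0.52 and 0.55 FPKM (D1), 0.915, 0.769 and 1.12 (D3), 1.55 and 1.84 (D7), 3.37, 2.71 and 4.45 (D21) and 4.36, 5.87 and 4.71 (D49) in control cells. With LPS Pdk4 read 0.205, 0.495 and 0.215 FPKM (D1), 0.463 and 0.163 (D3), 0.503 and 0.39 (D7), 0.648 and 0.386 (D21) and 0.603 and 0.736 (D49). Control and LPS libraries did not overlap at any age, and the controls climbed with age while no LPS library exceeded 0.736. The log2 fold change was -0.80 ± 0.43 at D1 (adjusted p = 0.44), -1.57 ± 0.45 at D3 (0.042), -1.92 ± 0.48 at D7 (0.013), -2.75 ± 0.47 at D21 (4.3e-04) and -2.89 ± 0.47 at D49 (3.6e-04). At D3 the call was lost without LPS replicate 2 (-1.01, adjusted p = 0.55), control replicate 1 (-1.59, 0.086) or control replicate 3 (-1.42, 0.11) and the value was -2.51 without LPS replicate 1; at D7 it was lost without either LPS library or control replicate 2 (-2.12, -1.75 and -1.80, adjusted p = 0.072, 0.15 and 0.084). At D21 and D49 it held without each library in turn. The values with the GC covariate were -0.77, -1.57, -1.91, -2.70 and -2.85 in the order of age, with the same 4 calls. With a replicate block alone the D3 call was lost (-1.54 ± 0.49, adjusted p = 0.079). Without the libraries of GC deviation beyond 1 the values were -1.25, -1.04, -1.92, -2.63 and -2.83.

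Pdk1, the kinase that Hif1a is known to induce, went the same way. Its control level was above that of Pdk4 at D1 and D3 and below it at D21 and D49. Its values were 1.6 and 1.42 FPKM (D1), 2.86, 3.34 and 2.07 (D3), 1.96 and 1.83 (D7), 1.06, 0.965 and 0.981 (D21) and 0.796, 0.743 and 1.03 (D49) in control cells. With LPS Pdk1 read 0.872, 0.791 and 0.582 FPKM (D1), 1.29 and 1.2 (D3), 0.769 and 0.717 (D7), 0.489 and 0.365 (D21) and 0.453 and 0.556 (D49). The groups did not overlap at any age, and the D3 controls stood highest. The log2 fold change was -1.01 ± 0.26 at D1 (adjusted p = 0.026), -1.15 ± 0.27 at D3 (0.012), -1.35 ± 0.30 at D7 (0.0049), -1.23 ± 0.28 at D21 (0.0057) and -0.76 ± 0.28 at D49 (0.092). Leaving out 1 library ended the call in 4 of 5 fits at D1 (-1.09 to -0.86 in these, adjusted p up to 0.24), in 2 of 5 at D3 (without either LPS library, 0.1 and 0.16), in 1 of 4 at D7 (without LPS replicate 2, 0.071) and in 1 of 5 at D21 (without LPS replicate 2, 0.13). With the GC covariate all 4 calls held, with adjusted p from 8.8e-04 to 0.0075. Without the libraries of GC deviation beyond 1 the fall was smaller at D1 and D3 (-0.78 and -0.85), and -1.35 at D7 and -1.24 at D21. Pdk3, a further kinase of the family, passed at no single age.

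Mxi1 and Bnip3, 2 hypoxia targets that respectively oppose Myc and promote the removal of mitochondria, fell while Ndrg1 rose. Mxi1 read 4.12 and 3.41 FPKM (D1), 6.1, 5.89 and 5 (D3), 5.05 and 4.5 (D7), 4.96, 5.58 and 4.94 (D21) and 3.49, 5.27 and 2.59 (D49) in control cells. With LPS Mxi1 read 2.56, 2.8 and 1.75 FPKM (D1), 2.54 and 2.18 (D3), 1.85 and 1.4 (D7), 2.24 and 2.12 (D21) and 1.85 and 2.44 (D49). The control and LPS libraries did not overlap at any age. Its log2 fold change was -0.67 ± 0.27 at D1 (adjusted p = 0.23), -1.26 ± 0.29 at D3 (0.0089), -1.56 ± 0.31 at D7 (0.0024), -1.24 ± 0.29 at D21 (0.0065) and -0.82 ± 0.29 at D49 (0.079). These calls were lost without either LPS library at D3 (adjusted p = 0.067 and 0.15) and at D21 (0.076 and 0.099), and without LPS replicate 2 at D7 (0.061). Mxi1 kept these 3 calls with the GC covariate and also passed at D49 (-0.79 ± 0.27, adjusted p = 0.036). Bnip3 passed at D7 alone, with -1.23 ± 0.38 (adjusted p = 0.049), and the call was lost without any of the 4 libraries (-1.40 to -1.02, adjusted p 0.097 to 0.31). Bnip3 was -1.14 ± 0.32 at D7 with the GC covariate (adjusted p = 0.01) and also passed at D49 with -0.90 ± 0.30 (0.034). P4ha1, the collagen prolyl hydroxylase subunit, passed in no LPS comparison.

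**Figure D2:**
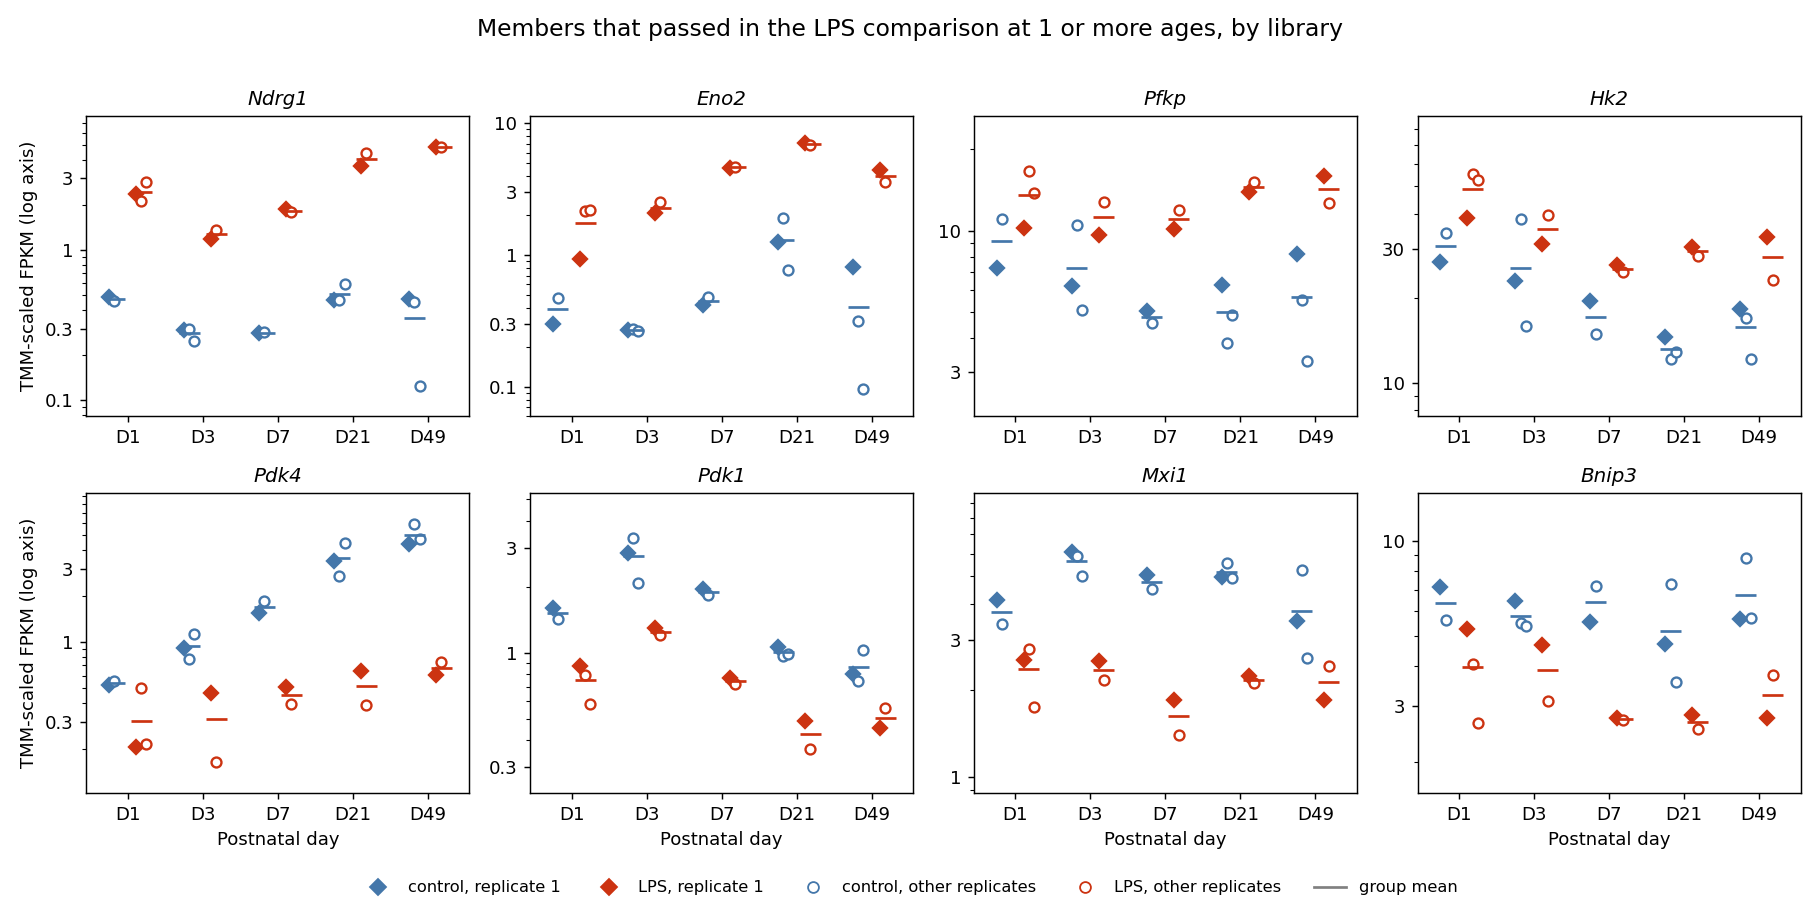
TMM-scaled FPKM (log axis) of 8 members in each of the 24 libraries by postnatal day, control in blue and LPS in red; filled diamonds are replicate 1 libraries, open circles the other replicates and bars the group means. LPS libraries of Ndrg1 and Eno2 lie above all controls of their age, and those of Pdk4, Pdk1, Mxi1 and Bnip3 below.

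Transcript levels of Hif1a itself, of the glucose transporter Slc2a1, of Gapdh and of Ldha passed at no single age without the covariate. Hif1a read 119 and 84.2 FPKM (D1), 131, 65.3 and 156 (D3), 163 and 170 (D7), 166, 261 and 194 (D21) and 161, 190 and 281 (D49) in control cells. With LPS Hif1a read 134, 79.8 and 102 FPKM (D1), 131 and 97.6 (D3), 175 and 149 (D7), 180 and 185 (D21) and 200 and 243 (D49). The groups overlapped at every age, and the log2 fold change lay between -0.18 ± 0.33 and 0.07 ± 0.33 with adjusted p of at least 0.77. It lay between 0.06 and 0.40 with the GC covariate, and no age passed. Egln1, the prolyl hydroxylase that marks the factor for degradation, passed at no single age in either fit.

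Slc2a1, the main glucose importer of stimulated macrophages, read 17.1 and 46.4 FPKM (D1), 10.8, 25.2 and 7.98 (D3), 10.2 and 6.89 (D7), 9.27, 4.74 and 3.5 (D21) and 9.99, 4.52 and 6.07 (D49) in control cells. With LPS Slc2a1 read 14.3, 54.1 and 40.4 FPKM (D1), 11 and 27.5 (D3), 8.11 and 9.24 (D7), 6.14 and 5.41 (D21) and 5.69 and 2.86 (D49). The groups overlapped at every age, and replicates of 1 group differed several-fold at D1 and D3, where their GC deviations differed. Its log2 fold change lay between -0.68 ± 0.62 (D49) and 0.39 ± 0.60 (D3), with adjusted p from 0.57 up; with the GC covariate it was -1.36 ± 0.31 at D49 (0.0016).

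Gapdh, the glyceraldehyde phosphate dehydrogenase, read 7.76 and 94.6 FPKM (D1), 6.73, 34.8 and 6.49 (D3), 8.1 and 3.2 (D7), 8.32, 2.49 and 2.01 (D21) and 10.1, 1.86 and 2.56 (D49) in control cells. With LPS Gapdh read 6.13, 98.8 and 93.9 FPKM (D1), 6.08 and 33.9 (D3), 7.25 and 5.43 (D7), 6.65 and 2.58 (D21) and 6.93 and 1.72 (D49). The 3 libraries above 90 FPKM were the D1 libraries of GC deviation above 2, in both treatments. Its log2 fold change lay between -0.17 ± 1.17 (D49) and 0.37 ± 1.16 (D1). Gapdh with the GC covariate was -1.46 ± 0.52 at D49 (adjusted p = 0.045) and -1.19 ± 0.50 at D21 (0.093).

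Ldha, which turns pyruvate into lactate, read 109 and 338 FPKM (D1), 64.5, 218 and 74.6 (D3), 49.6 and 54.2 (D7), 79.9, 25.5 and 31.7 (D21) and 92.9, 28 and 22.2 (D49) in control cells. With LPS Ldha read 114, 377 and 363 FPKM (D1), 82 and 242 (D3), 68.6 and 109 (D7), 87.1 and 101 (D21) and 94.4 and 63 (D49). The groups did not overlap at D7 and D21 and overlapped at D1, D3 and D49. The log2 fold change was 0.35, 0.45, 0.77, 1.04 and 0.72 in the order of age with SE of 0.70 to 0.79, and adjusted p ran from 0.38 to 0.97. Ldha with the GC covariate was 0.32 ± 0.22 at D21 and at most 0.36 at any age, and no age passed.

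Averaged over the 5 ages, a comparison added after the values had been seen, 14 of 33 members passed (8 higher, 6 lower). Of all tested genes 33.6% passed (14.9% higher, 18.8% lower). The largest rises were those of Eno2 with 2.86 ± 0.26 (adjusted p = 5.2e-08) and Ndrg1 with 2.80 ± 0.17 (2.5e-10). The other higher members were Pfkp with 1.05 ± 0.16 (4.0e-05), Hk2 with 0.74 ± 0.14 (2.8e-04), Hk1 with 1.07 ± 0.25 (0.0023), Hk3, the myeloid hexokinase, with 1.35 ± 0.39 (0.011), the glucose transporter Slc2a6 with 2.02 ± 0.66 (0.023) and Pfkfb3 with 0.31 ± 0.11 (0.047). The lower members were Pdk1 with -1.10 ± 0.12 (9.7e-07), Pdk4 with -1.99 ± 0.20 (2.8e-07) and Mxi1 with -1.11 ± 0.13 (1.5e-06). Also lower were Bnip3 with -0.89 ± 0.16 (1.9e-04), Pdk3 with -0.64 ± 0.16 (0.0035) and the lactate exporter Slc16a3 with -1.18 ± 0.28 (0.003). Pfkfb3 was lost in 18 of 24 fits that left out 1 library (0.26 to 0.35, adjusted p up to 0.09) and Slc2a6 in 5 of 24 (without D49 LPS replicate 1, 1.26 and adjusted p = 0.3; 3.05 without D49 control replicate 1); without D1 control replicate 1, D3 LPS replicate 2, D7 LPS replicate 2 or D7 control replicate 2 its adjusted p was 0.051 to 0.057. The other 12 held in all 24. Slc2a6 read at most 0.204 FPKM in every control library except D1 control replicate 2, so its fold change rests on few counts.

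With the GC covariate 26 of 33 members passed in that average (9 higher, 17 lower), against 41.3% of all tested genes. The fit added Ldha on the higher side, with 0.25 ± 0.10 (adjusted p = 0.049). On the lower side it added 11 members. Among them were Pfkl, the liver-type phosphofructokinase, with -1.45 ± 0.21 (1.6e-06), Pkm with -0.85 ± 0.09 (6.5e-09), Aldoa with -0.71 ± 0.19 (0.0026), and Eno1 with -0.54 ± 0.13 (0.0012), as well as Gapdh with -0.58 ± 0.23 (0.04), Tpi1, the triose phosphate isomerase, with -0.44 ± 0.12 (0.0036) and Slc2a1 with -0.41 ± 0.14 (0.016). The others were the brain-type aldolase Aldoc with -0.50, the fructose bisphosphate regulator Pfkfb4 with -0.55, Pgam1 with -0.35 and Pfkm with -0.76. Without the libraries of GC deviation beyond 1, which leaves 1 library in several groups, Pfkl was -1.27, Pkm -0.81 and Aldoc -0.35. There Aldoa was -0.48, Eno1 -0.47, Pfkfb4 -0.43 and Tpi1 -0.36. Gapdh was -0.28, Pgam1 -0.25, Slc2a1 -0.24 and Pfkm 0.00. The 10 replicate 1 libraries, of close GC deviation, were also fitted alone with age and LPS as additive terms. There 26 members passed (10 higher, 16 lower) against 46.9% of all tested genes. How many of all tested genes lay on 1 side of control at all 5 ages in these libraries was not counted, so the following lists have no background. LPS was below control at all 5 ages for 10 members that did not pass in the first average, Pkm (49.2 to 28.7 FPKM at D1 and 72.5 to 32.8 at D49), Pfkl, Pfkfb4, Aldoa, Aldoc, Tpi1, Gapdh, Pgam1, Eno1 and Egln1. It was above control at all 5 for Hk1, Hk2, Hk3, Pfkm, Pfkp, Pfkfb3, Eno2, Ldha, Hif1a and Ndrg1. The smallest of these rises were 0.00 log2 units for Hif1a at D3, 0.01 for Hk1 at D1 and 0.02 for Ldha at D49. Pfkm thus had the opposite sign from the fits on all libraries, 0.41 ± 0.18 (adjusted p = 0.1), and Hif1a with 0.19 ± 0.05 (0.022) and Egln1 with -0.34 ± 0.08 (0.011) passed in these 10 libraries. Slc16a1, the second lactate carrier, Gpi1, the glucose phosphate isomerase, Pgk1, Ldhb, the heart-type lactate dehydrogenase subunit, and P4ha1 passed neither in the first average nor in the covariate or replicate 1 fit.

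**Figure D3:**
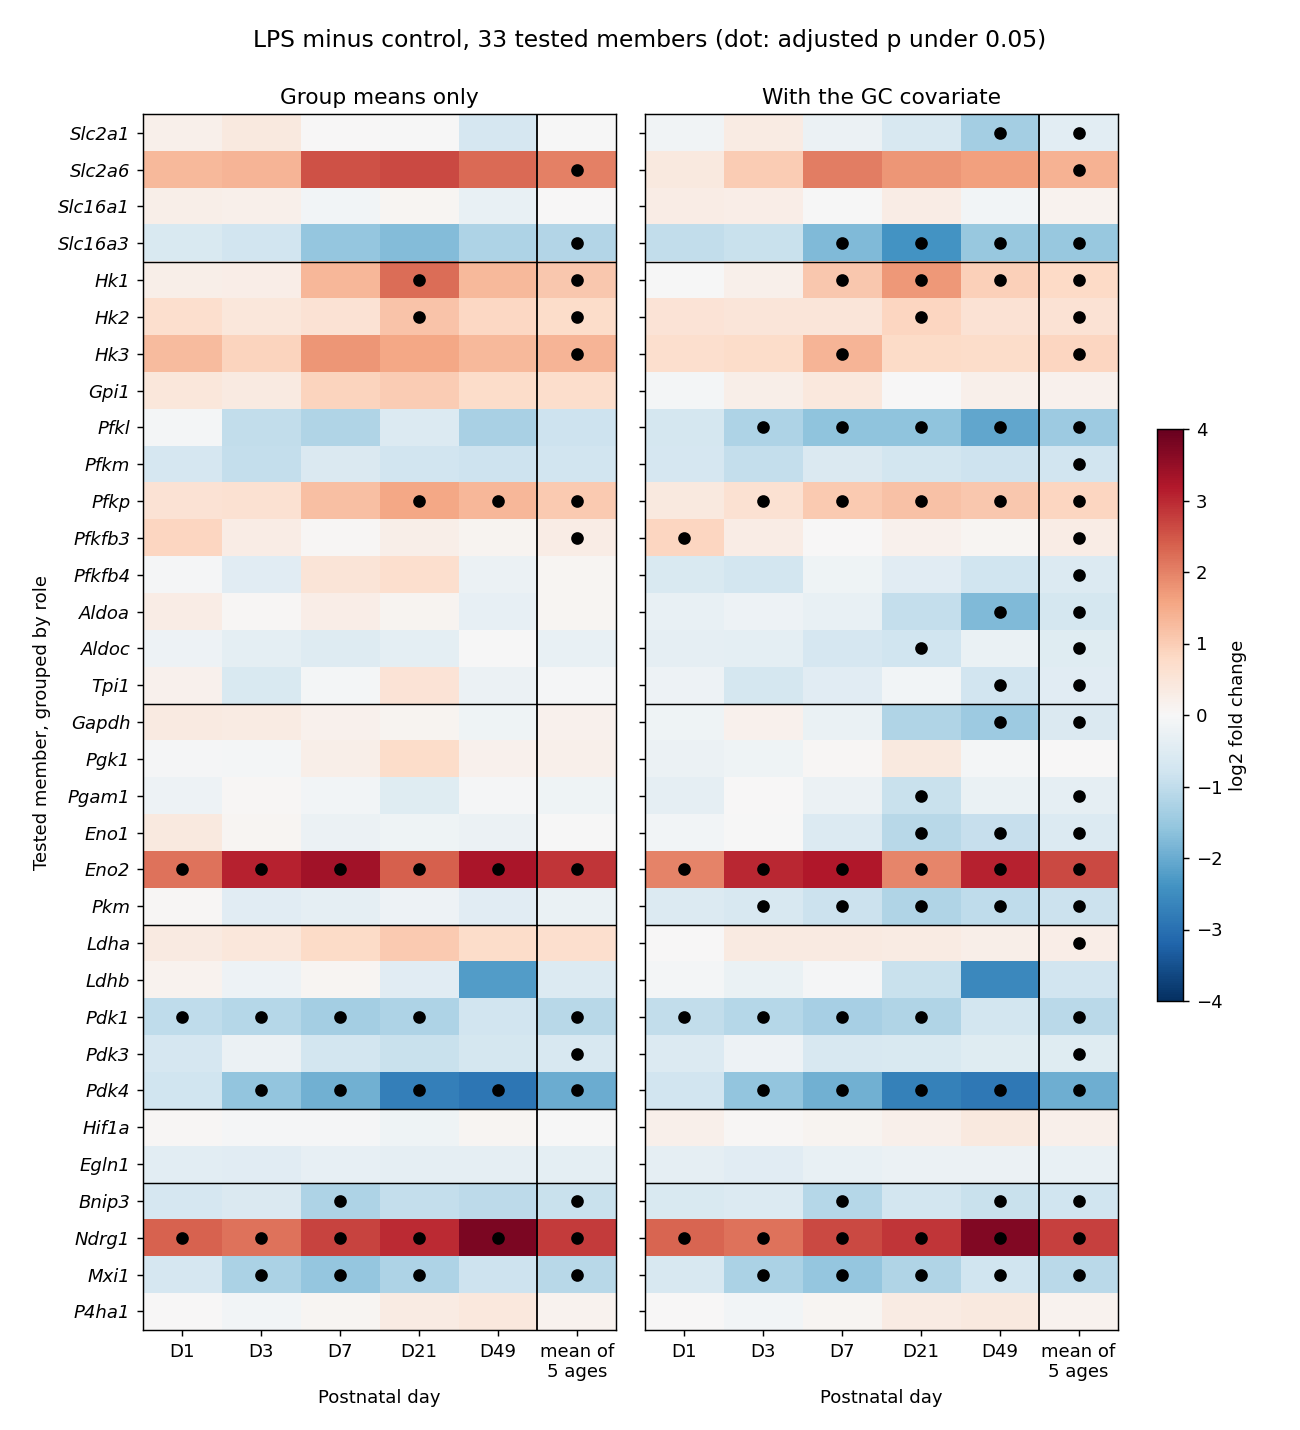
Log2 fold change, LPS minus control, of the 33 tested members (rows, grouped by role) at each postnatal day and averaged over the 5 ages, from edgeR's quasi-likelihood fit with group means only (left) and with GC deviation as a covariate (right); a dot marks an adjusted p under 0.05. Ndrg1 and Eno2 carry a dot at every age in both panels, and dots on the blue side for Pkm and Pfkl at single ages appear only in the right panel.

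The difference between the D49 and the D1 response was tested directly, and 0 of 33 members passed against 0.204% of all tested genes (0.0340% higher, 0.170% lower). Unadjusted p was under 0.05 for 2 members with edgeR's test, against 619 of all 11774 tested genes. It was under 0.05 for 3 members with DESeq2 (675 genes) and for 10 with the GC covariate (1347 genes). Both of these also called 0 members. In edgeR's test without the covariate the difference was -2.09 ± 0.63 for Pdk4 (adjusted p = 0.31, and 0.057 with the covariate). For Ndrg1 it was 1.40 ± 0.50 (0.54, and 0.11 with the covariate).

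Several marker sums moved with LPS beside these members. Summed FPKM of 6 exocrine gland genes was 739 to 1150 in D1 LPS and 0.224 to 0.682 in D1 control. That sum was also higher with LPS at D3 (247 to 323 against 1.05 to 1.6) and D7 (465 to 470 against 11.9 to 12.1). At D21 it was the reverse, 8.58 to 8.81 with LPS and 1299 to 1568 in control. So it was at D49, with 6.66 to 7.75 and 1133 to 2024. The 4 endothelial genes summed to more with LPS at all 5 ages without overlap, 4.16 to 6.18 FPKM against 2.04 to 2.4 at D1, 1.03 to 1.09 against 0.368 to 0.39 at D7 and 0.338 to 0.515 against 0.0657 to 0.195 at D49, with Cldn5 at 0 in 23 libraries. The 10 skeletal muscle genes summed to at least 2.22 FPKM in every control library and to at most 2.4 in every LPS library, with D21 control at 10.4 to 109, and Ckm was at 0 in 9 libraries. The 6 monocyte genes summed to 36.8 to 44.3 FPKM in D21 LPS and 7.83 to 10.4 in D21 control, were also higher without overlap at D7 and D49 and overlapped at D1 and D3. Fn1 reached 177 FPKM of that sum, and Ly6c2 was at 0 in 6 libraries. The 10 neutrophil genes summed to 169 to 221 in D3 LPS and 82.6 to 123 in D3 control, and were also higher at D7. They were lower at D21 (30.5 to 36.3 against 50.2 to 64.4) and overlapped at D1 and D49, with Ly6g at 0 in 17 libraries. The 6 erythroid genes summed to 45 to 88.5 in D1 LPS and 25.5 to 26.9 in D1 control. The part of such cells in the members' differences was not tested.

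In control cells, 15 of 33 members differed between D49 and D1 (3 higher, 12 lower). Of all tested genes 42.8% did (21.0% higher, 21.9% lower), so the members' share of 45.5% was close to the background. With the GC covariate 6 passed (3 higher, 3 lower), against 10.4%. Pdk4 was higher, and Ldhb, Hk1 and Pgk1 lower, in both fits. The count was 4 without D1 control replicate 2, 9 without D49 control replicate 3 and 24 without D49 control replicate 1. Over all 5 ages, 13 members passed a test for any difference among control groups against 34.7% of all tested genes, and 8 against 17.2% with the covariate; without D1 control replicate 2 the count was 8 and without D49 control replicate 1 it was 20. Eno2 passed there (adjusted p = 0.011; 0.073 without D21 control replicate 2) and not between D49 and D1.

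Pdk4 rose by 3.21 ± 0.48 on the log2 scale from D1 to D49 (adjusted p = 1.5e-04), by 3.08 ± 0.49 with the GC covariate (4.6e-05), and its 3 D49 controls at 4.36, 5.87 and 4.71 FPKM stood far above the D1 controls at 0.52 and 0.55. Ldhb read 2.06 and 4.53 FPKM (D1), 3.6, 4.04 and 1.73 (D3), 2.65 and 0.74 (D7), 0.219, 0.0423 and 0.319 (D21) and 0.0663, 0.124 and 0.144 (D49) in control cells. With LPS Ldhb read 1.8, 3.95 and 5.21 FPKM (D1), 2.13 and 3.25 (D3), 2.4 and 1.16 (D7), 0.269 and 0 (D21) and 0.0408 and 0 (D49). All D21 and D49 libraries lay below every earlier library, with a control log2 fold change of -4.87 ± 0.90 (adjusted p = 9.6e-04; -3.57 ± 0.89 and 0.0068 with the covariate). Without the 10 libraries of GC deviation beyond 1 it was -4.92 with adjusted p = 0.078. The low late levels rest on few counts.

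Hk1 read 1.32 and 2.4 FPKM (D1), 0.713, 1.47 and 0.714 (D3), 0.434 and 0.403 (D7), 0.188, 0.0778 and 0.125 (D21) and 0.421, 0.0838 and 0.194 (D49) in control cells. With LPS Hk1 read 1.33, 2.94 and 2.31 FPKM (D1), 0.836 and 1.47 (D3), 0.788 and 1.3 (D7), 0.719 and 0.522 (D21) and 0.684 and 0.472 (D49). The D21 and D49 controls lay below every D1 and D3 control and met those of D7, and the D49 minus D1 value was -2.98 ± 0.55 (adjusted p = 9.7e-04), or -1.57 ± 0.38 with the covariate (0.0058). Pgk1 read 131 and 181 FPKM (D1), 88.2, 132 and 117 (D3), 68.3 and 80.1 (D7), 48.5, 22.4 and 29.7 (D21) and 53.2, 39.1 and 17.5 (D49) in control cells. With LPS Pgk1 read 118, 157 and 174 FPKM (D1), 84.4 and 128 (D3), 68.4 and 106 (D7), 48.6 and 63 (D21) and 48.2 and 34.8 (D49). It was lower in every D21 and D49 control than in any younger control, with -2.09 ± 0.39 (0.001) and -1.13 ± 0.29 with the covariate (0.0095). Both calls, and those of Pdk4 and Ldhb, held without each library in turn.

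For the other 11 members that passed, the call was lost with the covariate. Without it Gapdh fell by 3.40 on the log2 scale, Eno1 by 3.20, Tpi1 by 2.76, Gpi1 by 2.71, Ldha by 2.23 and Slc2a1 by 2.21. Smaller falls were those of Pgam1, which fell by 0.98, Hk2, which fell by 0.95, and Pdk1, which fell by 0.81, with adjusted p from 0.0057 to 0.04 over these 9. Slc16a1 rose by 1.29 (0.0055) and Hif1a by 1.05 (0.022). With the covariate these 11 values lay between -0.90 (Pdk1, adjusted p = 0.087) and 1.07 (Gapdh, 0.39). The call of each was also lost without D1 control replicate 2, whose GC deviation was 2.28, when Gapdh was -0.68, Gpi1 -1.20, Slc2a1 -1.31, Ldha -1.19, Eno1 -1.78 and Pgam1 -0.63. Leaving out D49 control replicate 2 or 3 also ended the calls of Gpi1 (-2.31 and -2.33), Gapdh (-3.01 and -3.11), Pgam1 (-1.07 and -0.62) and Ldha (-1.96 and -1.90). Hk2 (-0.78) and Hif1a (0.79) lost theirs without D49 control replicate 3, and Pdk1 without D1 control replicate 1 (-0.73) or D49 control replicate 2 (-0.72), while Gpi1 was -4.21 without D49 control replicate 1. Aldoa and Pkm, -3.10 ± 1.26 and -2.15 ± 0.95 without the covariate and not passing, were 1.71 ± 0.54 (adjusted p = 0.04) and 1.04 ± 0.25 (0.0046) with it.

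Gpi1 read 12.1 and 56.5 FPKM (D1), 9.76, 40.9 and 11.5 (D3), 10.6 and 6.17 (D7), 10.8, 2.73 and 4.21 (D21) and 12, 1.9 and 1.79 (D49) in control cells. With LPS Gpi1 read 10.5, 70.8 and 59.2 FPKM (D1), 11.1 and 42.5 (D3), 11.6 and 19.3 (D7), 11.9 and 11.9 (D21) and 11.2 and 6.26 (D49). Its level followed the GC deviation of the library at D1, where the 2 controls differed more than any 2 ages did among replicate 1 libraries. Tpi1 read 13.8 and 35.7 FPKM (D1), 11.3, 33.2 and 15.3 (D3), 8.71 and 8.9 (D7), 7.32, 2.65 and 3.18 (D21) and 6.58, 2.43 and 1.91 (D49) in control cells. With LPS Tpi1 read 11.2, 42.2 and 31 FPKM (D1), 7.8 and 18.6 (D3), 5.92 and 10.8 (D7), 4.84 and 7.93 (D21) and 3.87 and 2.27 (D49). Replicate 1 controls of Tpi1 went from 13.8 at D1 to 6.58 at D49, a log2 difference of -1.07.

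Eno1 read 21.8 and 95 FPKM (D1), 15.2, 41.8 and 10.2 (D3), 12.8 and 6.18 (D7), 10.1, 3.89 and 3.75 (D21) and 11.8, 4.33 and 2.88 (D49) in control cells. With LPS Eno1 read 15.9, 121 and 94.4 FPKM (D1), 11.5 and 36.3 (D3), 8.97 and 7.08 (D7), 6.14 and 4.48 (D21) and 6.45 and 4.26 (D49). The 3 D1 libraries of GC deviation above 2 were the highest, in both treatments. Pgam1 read 89.2 and 137 FPKM (D1), 59.7, 85.5 and 44.8 (D3), 60.6 and 48.1 (D7), 62.5, 55.9 and 58.9 (D21) and 82.4, 64.6 and 25.3 (D49) in control cells. With LPS Pgam1 read 73.6, 110 and 110 FPKM (D1), 52.1 and 78 (D3), 53.5 and 46.5 (D7), 47.1 and 37.5 (D21) and 55.4 and 55.2 (D49). Here D49 control replicate 3 was the lowest library, and the other D49 controls lay within the range of the D3 to D21 controls.

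Slc16a1, which carries lactate and pyruvate across the membrane, read 7.86 and 6.12 FPKM (D1), 7.42, 4.35 and 10.1 (D3), 9.51 and 9.22 (D7), 13.9, 13.6 and 13.8 (D21) and 15.1, 13.3 and 22.9 (D49) in control cells. With LPS Slc16a1 read 9.35, 6.25 and 8.84 FPKM (D1), 9.26 and 7.48 (D3), 9.24 and 8.28 (D7), 14.1 and 15.2 (D21) and 13.2 and 14.5 (D49). All D21 and D49 libraries exceeded every younger library, in both treatments. In replicate 1 libraries the D49 minus D1 control difference was 0.94 for Slc16a1 and 0.43 for Hif1a on the log2 scale, with no replicate within that pair. The marker sum of alveolar macrophages, to which Chil3 gave up to 21770 FPKM, also stood higher at D21 and D49. Other sums were lower in D49 than in D1 control. Monocyte genes summed to 4.36 to 25.6 FPKM in D49 control and 75 to 164 in D1 control, neutrophil genes to 52.8 to 91.5 and 140 to 234, erythroid genes to 0.249 to 2.2 and 25.5 to 26.9, and endothelial genes to 0.0657 to 0.195 and 2.04 to 2.4. That of exocrine gland genes was 1133 to 2024 FPKM in D49 control against 0.224 to 0.682 in D1 control; their part in these age differences was not tested.

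**Figure D4:**
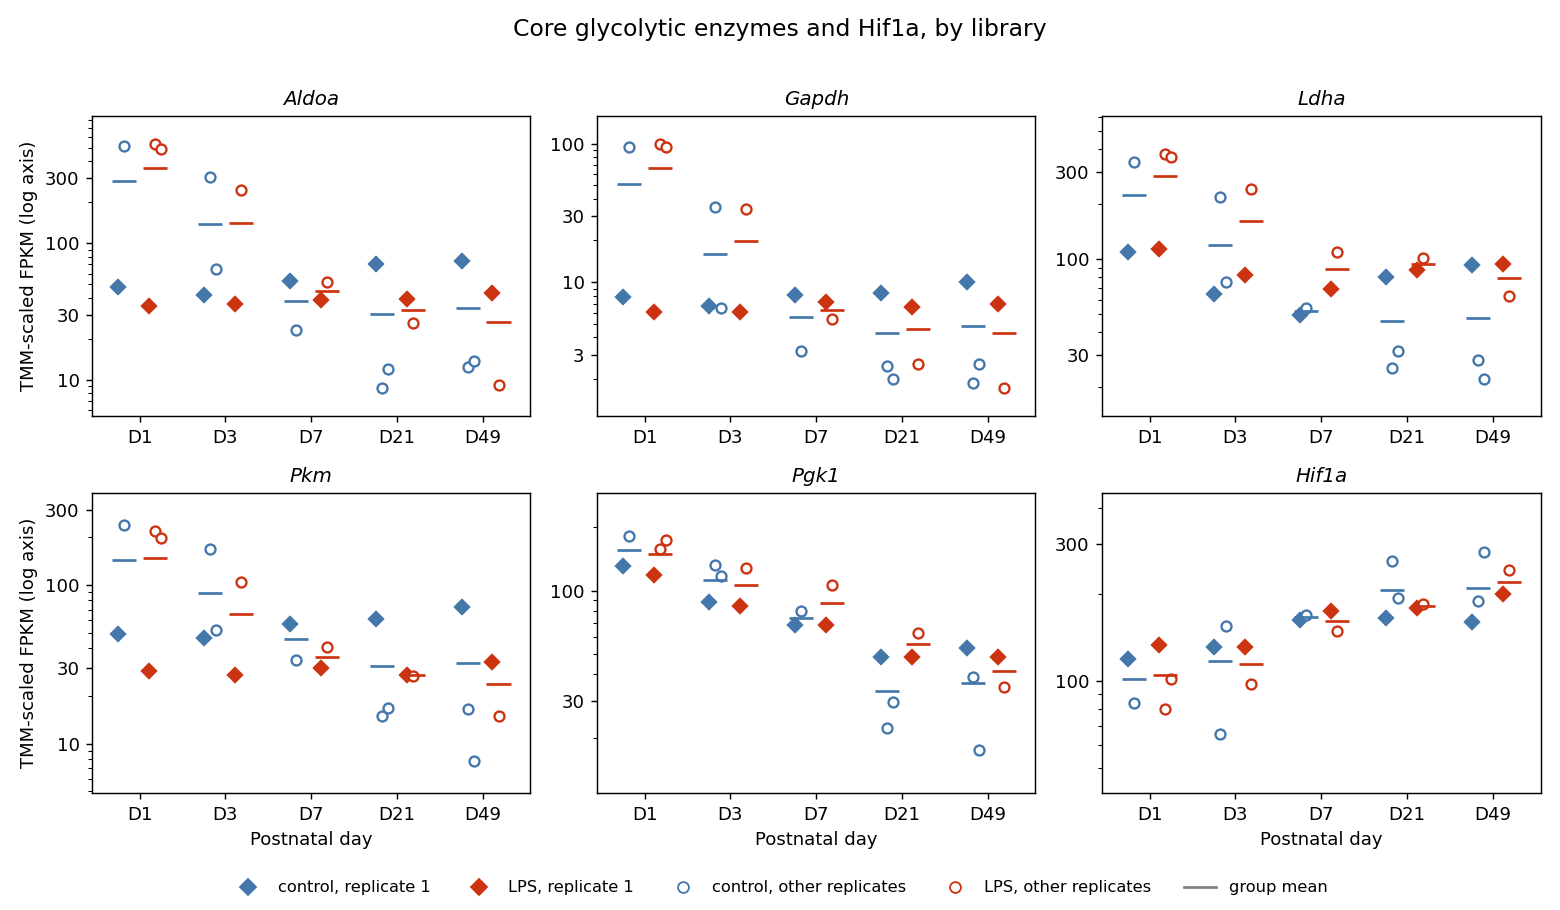
TMM-scaled FPKM (log axis) of Aldoa, Gapdh, Ldha, Pkm, Pgk1 and Hif1a in each of the 24 libraries by postnatal day, control in blue and LPS in red, filled diamonds for replicate 1, open circles for other replicates and bars for group means. Replicate 1 libraries stay between 34.7 and 74 FPKM for Aldoa, 6.08 and 10.1 for Gapdh and 27.2 and 72.5 for Pkm over the ages, while the other replicates run from far above them at D1 to below them at D49; Pgk1 declines in both.

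**Figure D5:**
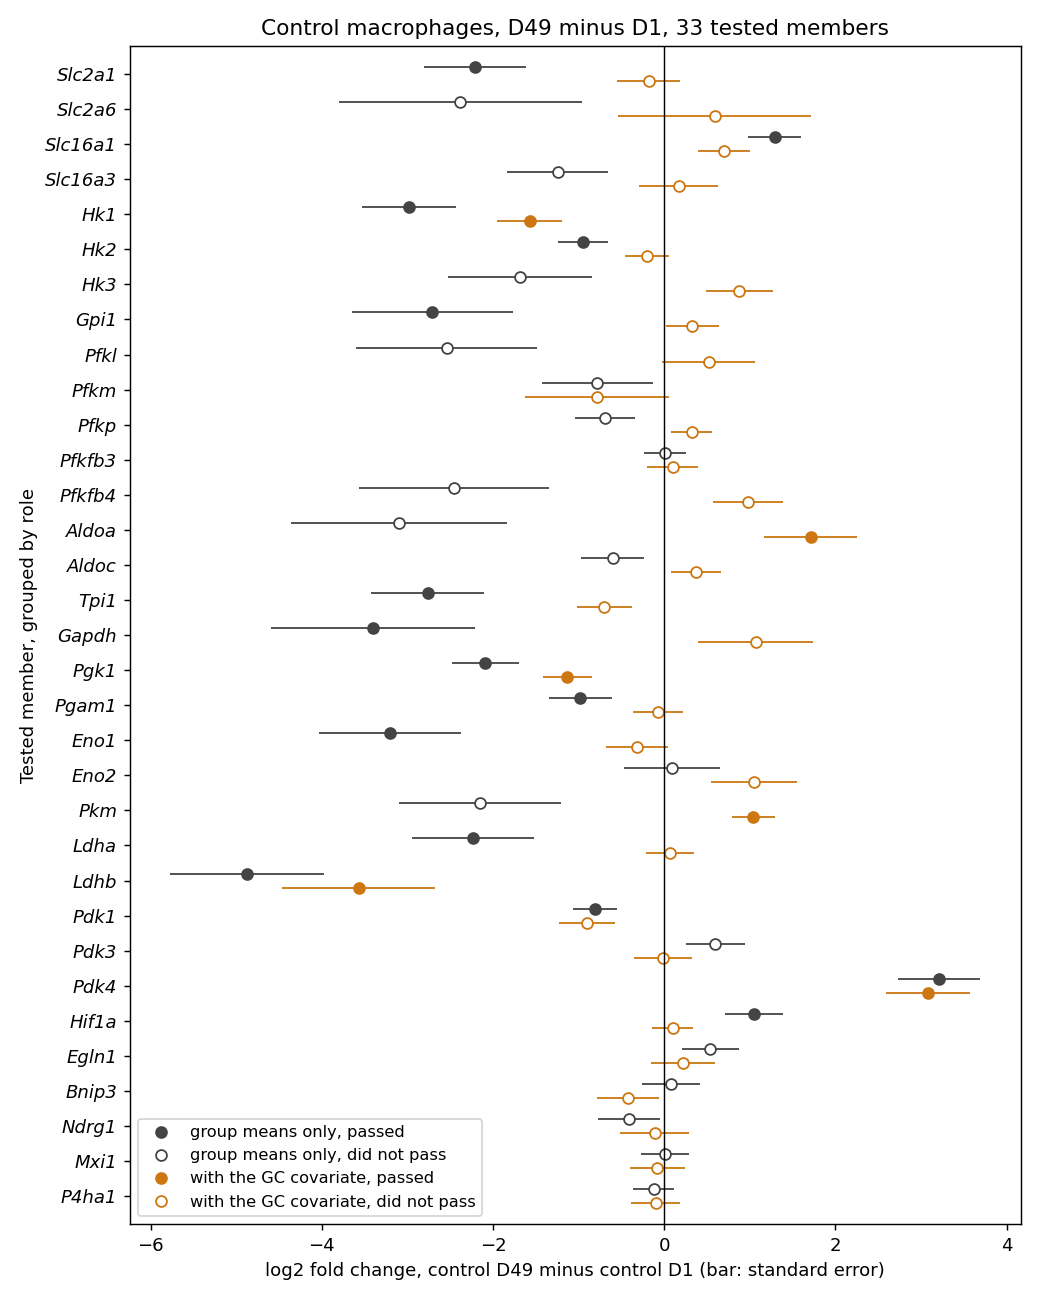
Log2 fold change in control macrophages, D49 minus D1, of the 33 tested members with SE bars, from the fit with group means only (dark) and with GC deviation as a covariate (orange); filled points passed at an adjusted p under 0.05. Pdk4, Ldhb, Hk1 and Pgk1 are filled in both fits, and Aldoa and Pkm change side.

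Promoter windows of the members, 250 bases before to 50 after the annotated start, were read from RefSeq (build GRCm38.p6), and 35 of 37 members had an entry; Slc2a3 and Ndrg1 had none. The core letters of the hypoxia response element were searched on both strands as ACGTG and, more loosely, as GCGTG. The stricter core stood in 28 of 51 member windows (54.9%) and in 19.6% of all 32817 windows of the same length. Either core stood in 80.4% of member windows and in 43.8% of all windows. Windows are shown for 5 members whose levels moved in different ways, chosen after their values were seen, with each match to either core, or to its reverse complement, in capitals. Hk2 and Eno2 rose with LPS, Bnip3 and Pdk4 fell, and Pgk1 declined with age. The windows were chr6:82774405-82774704 for Hk2, chr6:124769624-124769923 for Eno2, chr7:138909457-138909756 for Bnip3 and chr6:5496229-5496528 for Pdk4, all on the minus strand, and chrX:106186850-106187149 for Pgk1 on the plus strand.
Hk2: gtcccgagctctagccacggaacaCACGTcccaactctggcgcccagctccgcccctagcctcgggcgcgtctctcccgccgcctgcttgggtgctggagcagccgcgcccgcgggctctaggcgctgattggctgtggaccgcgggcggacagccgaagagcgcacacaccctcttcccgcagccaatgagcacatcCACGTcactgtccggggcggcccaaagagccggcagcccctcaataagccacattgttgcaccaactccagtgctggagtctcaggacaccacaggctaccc
Eno2: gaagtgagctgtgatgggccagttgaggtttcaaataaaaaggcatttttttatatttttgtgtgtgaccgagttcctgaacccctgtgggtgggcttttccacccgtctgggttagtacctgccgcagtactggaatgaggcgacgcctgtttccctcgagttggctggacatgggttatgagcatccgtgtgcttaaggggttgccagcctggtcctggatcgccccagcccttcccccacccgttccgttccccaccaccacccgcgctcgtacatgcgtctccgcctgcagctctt
Bnip3: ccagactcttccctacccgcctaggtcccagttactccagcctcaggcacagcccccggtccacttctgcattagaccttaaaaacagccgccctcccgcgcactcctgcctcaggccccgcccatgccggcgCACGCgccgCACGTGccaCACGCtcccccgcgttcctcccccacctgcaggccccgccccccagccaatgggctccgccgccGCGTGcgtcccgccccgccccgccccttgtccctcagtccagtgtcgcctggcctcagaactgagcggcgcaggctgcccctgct
Pdk4: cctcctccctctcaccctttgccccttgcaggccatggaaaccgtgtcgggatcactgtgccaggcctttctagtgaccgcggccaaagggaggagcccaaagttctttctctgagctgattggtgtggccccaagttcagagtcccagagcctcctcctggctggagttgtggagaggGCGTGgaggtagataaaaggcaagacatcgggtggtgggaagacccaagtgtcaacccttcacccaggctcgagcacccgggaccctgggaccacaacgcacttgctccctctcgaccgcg
Pgk1: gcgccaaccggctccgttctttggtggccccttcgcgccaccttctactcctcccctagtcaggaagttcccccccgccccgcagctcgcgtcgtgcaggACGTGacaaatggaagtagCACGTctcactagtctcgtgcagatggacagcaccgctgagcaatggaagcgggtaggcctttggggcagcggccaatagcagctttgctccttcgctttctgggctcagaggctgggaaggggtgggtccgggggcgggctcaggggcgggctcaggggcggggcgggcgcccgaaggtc
ACGTG was found 2 times each in Hk2, Bnip3 and Pgk1, where in Bnip3 both matches overlap in the palindrome CACGTG, which 7.15% of all windows hold. GCGTG was found 3 times in Bnip3 and 1 time in Pdk4, and the Eno2 window held neither.

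Genes of neighbouring pathways that are not members were counted from fixed lists. Of 16 tested further hypoxia genes, 1, 1, 2, 3 and 2 rose at D1, D3, D7, D21 and D49. Of all tested genes 3.74%, 4.43%, 5.15%, 6.77% and 5.24% did, and falls of the further hypoxia genes at single ages are not given here. Ak4, a mitochondrial adenylate kinase induced by hypoxia, rose at all 5 ages, by 2.04, 1.98, 2.22, 1.73 and 2.23 on the log2 scale (adjusted p 6.0e-04 to 0.0041). Of 9 further tested glycolysis genes, Gpd2, the mitochondrial glycerol phosphate dehydrogenase, was higher at D3, D7 and D49 (0.90, 1.04 and 0.70, adjusted p 0.0085 to 0.048). Both genes kept their direction with the GC covariate.

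Averaged over ages, 10 of 16 further hypoxia genes passed (5 higher, 5 lower), as did 6 of 9 further glycolysis genes (1 higher, 5 lower) and 5 of 11 glycogen genes (all lower). So did 5 of 11 genes of pyruvate entry into mitochondria (all lower), 2 of 8 pentose phosphate genes (both lower) and 4 of 18 genes of the tricarboxylic acid cycle (2 higher, 2 lower), against the same 33.6% of all tested genes. With the GC covariate the pentose phosphate count was 6 of 8, all lower, against 41.3% of all tested genes. Covariate counts of the other lists, and a list of gluconeogenesis genes, are not given here. Eno3 and Pgam2 stood both in the further glycolysis list and in the skeletal muscle marker list, whose sum was lower with LPS.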

How the data were processed

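RNA-seq libraries were made from poly(A) RNA of pooled alveolar macrophages, per the labels' protocols. The authors deposited whole-number counts per Ensembl gene with exonic lengths; the submitters' processing notes list STAR, DESeq2 and GRCm39 without roles, and no counting tool or strand setting is given in the sources used here. Symbols came from GENCODE M21, and 52073 genes had one. Printed FPKM was computed here from counts, lengths and library totals (15.8 to 23.3 M before scaling) after TMM scaling. For the filter, FPKM was computed from the totals without TMM scaling. Genes with at least 1 FPKM in 2 libraries were fitted with the quasi-likelihood test of edgeR 4.0.16 (R 4.3.3). The fit held 10 group means over 24 libraries, with Benjamini-Hochberg adjustment over 11774 genes, and the threshold was an adjusted p of 0.05. Errors are SE of the log2 fold change. Near copies of members held at most 1.26% of a member's counts (Eno1b for Eno1). GC content was known for 97.2% of tested genes. Alternatives were DESeq2 1.42.0, no filter, a replicate block, a GC covariate, leaving out libraries of GC deviation beyond 1, and leaving out each library. The average over ages and the replicate 1 fit were added after the data were seen.

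Members and lists were chosen with earlier results of these data known. Values per library are given for members that passed in 3 or more LPS comparisons or between control D49 and D1, and always for Slc2a1, Hk2, Pfkfb3, Gapdh, Ldha, Hif1a and Pdk4; genes outside the set are named where they passed in 3 or more LPS comparisons, except 1 that is not reported here. The table held 0 rows without a gene and 0 further columns. Scripts were tested on simulated data.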

Additional observations from a re-analysis of the deposited data

How the results depend on the processing

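Counts of members that passed are given first. The D3 LPS count of 5 was 2 with no filter, 8 with the GC covariate and 9 with the GC covariate and replicate block. The D1 count of 3 was 5 with the covariate and block together. At D7 the count of 6 was 12 with the covariate, 12 with covariate and block, and 14 without libraries of GC deviation beyond 1. At D21 the count of 8 was 14 with the covariate and 16 with covariate and block, and at D49 the count of 4 was 15 under both. The average over ages went from 14 to 26 with the covariate, to 23 with covariate and block and to 26 in the replicate 1 libraries. For control D49 minus D1 the count of 15 was 6 with the covariate, 6 with covariate and block and 5 without the libraries beyond 1; for the 5 control ages it went from 13 to 22 with no filter, 8 with the covariate and 6 without those libraries. The cause of these moves was not tested, except that leaving out libraries leaves fewer samples. DESeq2 kept each count within 1.5 times of that of edgeR.

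Leaving out 1 library gave counts of 1 to 3 at D1, 2 to 5 at D3, 2 to 5 at D7, 5 to 9 at D21, 3 to 6 at D49, 12 to 18 for the average over ages, 0 to 0 for the D49 minus D1 response, 4 to 24 for control D49 minus D1 and 8 to 20 for the 5 control ages. A group left with 1 library is assumed there to vary like the others.

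Reversed values, those that changed sign with a call in at least 1 of the 2 fits compared, came from GC-aware fits. In the average over ages Pfkfb4 was -0.55 with the GC covariate, -0.52 with the covariate and replicate block and -0.54 in replicate 1 libraries; Aldoa was -0.71, -0.65 and -0.50; and Gapdh was -0.58 with the covariate and -0.25 in replicate 1 libraries. For control D49 minus D1 the values with the covariate and with covariate and block were 0.33 and 0.31 for Gpi1, 1.71 and 1.64 for Aldoa, 1.07 and 1.02 for Gapdh, 1.04 and 1.03 for Pkm, and 0.07 and 0.04 for Ldha; Gapdh was 0.33 without the libraries beyond 1. Of the values of single members under all alternatives, 1299 kept their side of the threshold, 127 no longer passed, 119 newly passed and 19 reversed. A change of sign without a call in either fit was counted among the 1299.

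Replicate numbers are shared between groups in the labels, which do not say that they mark a shared animal or batch. Deviations of same-numbered control and LPS libraries correlated at 0.07 to 0.83, not all above 0.1, so the numbers were not taken to pair the samples. With a replicate block alone the counts were 3, 4, 6, 9 and 6 at D1 to D49, 13 for the average, 0 for the difference of responses, 10 for control D49 minus D1 and 10 for the 5 control ages.

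Groups held 2 or 3 libraries, and core enzymes such as Gapdh and Aldoa had SE above 1 log2 unit for LPS at each single age. High GC deviation occurs at D1 and D3 and low GC deviation in D21 control and at D49. Age and GC deviation thus run together outside the replicate 1 libraries, which hold 1 control library per age. GC deviation also differed by treatment at the late ages. It was 0.04 and -0.20 in D21 LPS against -0.02, -2.14 and -1.66 in D21 control. At D49 it was -0.21 and -1.34 with LPS against -0.10, -2.08 and -3.17 in control.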
